A study of Mus musculus with 13 samples.

Results

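The Hox genes studied here were 38 rows of the deposited expression table, of 25965 rows in all, whose symbol is Hox followed by a cluster letter from a to d and a paralogue number. Cluster A on chromosome 6 held 10 of them, cluster B on chromosome 11 held 10, cluster C on chromosome 15 held 9 and cluster D on chromosome 2 held 9. In the mm10 build these genes spanned 52162351 to 52260880 in cluster A and, in clusters B, C and D, 96194316 to 96368256, 102921103 to 103036843 and 74668310 to 74765143. RNA-seq was performed on female mouse embryonic stem cells (mESCs) from an F1 cross of an FVB/NJ dam and a CAST/EiJ sire, a background shared by all 13 libraries. One library (Day0) came from cells kept undifferentiated in 2i medium with LIF. The other 12 came from cells differentiated by stepwise weaning into serum-containing DME HiHi medium for 4, 5, 6 or 7 days, with 1 library per group and day. These cells received a retroviral hairpin on day 2 and puromycin from day 3, so Day0 precedes transduction. Nons carries a nonsilencing hairpin, whereas Smarcc1.6 and Smarcc1.7 are different hairpins against Smarcc1, a core subunit of the BAF chromatin remodelling complex. The purpose of the series was to compare Smarcc1-depleted and control cells during differentiation, and the Hox values give one readout of that time course.

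Hox genes encode homeodomain transcription factors that give positional identity along the head-to-tail axis of the embryo. Their order along each chromosome follows their order of expression, so that genes with low paralogue numbers (anterior) are classically switched on early and towards the head, and genes with high numbers (posterior) late and towards the tail. In pluripotent cells the clusters are known for Polycomb repression and for marks of both active and repressed chromatin, and retinoic acid, Wnt and Fgf signals are known to open them during differentiation. Genes with numbers 1 to 4 are called anterior here, 5 to 8 central and 9 to 13 posterior.

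The Hox genes were near the limit of detection. The libraries held between 13993440 (Smarcc1.7, day 5) and 63548092 (Smarcc1.6, day 4) reads, and a gene with 3 reads or fewer was taken as at or under the floor. A gene with 0 reads is written in the table as 0.9 reads, which is a log2 CPM (the log2 of reads scaled to a common library size) of between -6.14 and -3.96 depending on depth. Between 10 and 33 of the 38 members exceeded 3 reads in a library of days 4 to 7, fewest in the shallowest library (Smarcc1.7, day 5). That is 26.3% to 86.8% of members, beside 59.9% to 70.1% of all rows. The members' share was above that of all rows in Smarcc1.6 on days 4 (81.6% against 70.1%) and 7 (86.8% against 67.9%) and in Smarcc1.7 on day 4 (73.7% against 67.4%), and below it in the other 9. All members together held between 127 and 979 reads in those libraries and 519 in Day0. The 3 libraries of day 6 and Day0 had 85.3% to 86.5% of their reads inside genes, against 91.6% to 92.6% in the others, and the part of this in the Hox values was not tested. The knockdown was visible in its target: Smarcc1 lay between 7.89 and 9.10 log2 CPM in Nons, between 7.28 and 7.42 in Smarcc1.6 and between 7.17 and 7.96 in Smarcc1.7, which was lower in 8 of 8 same-day comparisons (mean difference -1.06 ± 0.42 (SD), exact permutation test within days, two-sided p = 0.0123, the smallest its 81 arrangements can give). The labels do not say whether libraries came from separate cultures, so p-values measure the spread between these libraries. RNA came from whole cultures, in which fewer cells expressing a gene and less RNA per cell cannot be told apart.

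Summed over all 38 members, Hox expression was low in every library and was not higher in differentiating cells than in Day0. The sum was 23.3 CPM in Day0. In Nons it was 11.5, 10.99, 9.83 and 8.66 CPM on days 4, 5, 6 and 7. In Smarcc1.6 it was 15.4, 8.68, 12.3 and 15.5 CPM, and in Smarcc1.7 12.5, 9.08, 9.09 and 9.63 CPM. Nons was lowest on day 7, whereas both hairpins were lowest on day 5. On days 4 to 7, 2.63% to 10.53% of members reached 1 CPM in a library, compared with 51.2% to 52.9% of all rows. In Day0, 7 members (18.4%) reached 1 CPM, against 49.5% of all rows. The members with more than 3 reads in all 12 differentiating libraries were Hoxb1, Hoxb9, Hoxc13, Hoxd1 and Hoxd13. Hoxa6 never exceeded 2 reads.

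**Figure D1:**
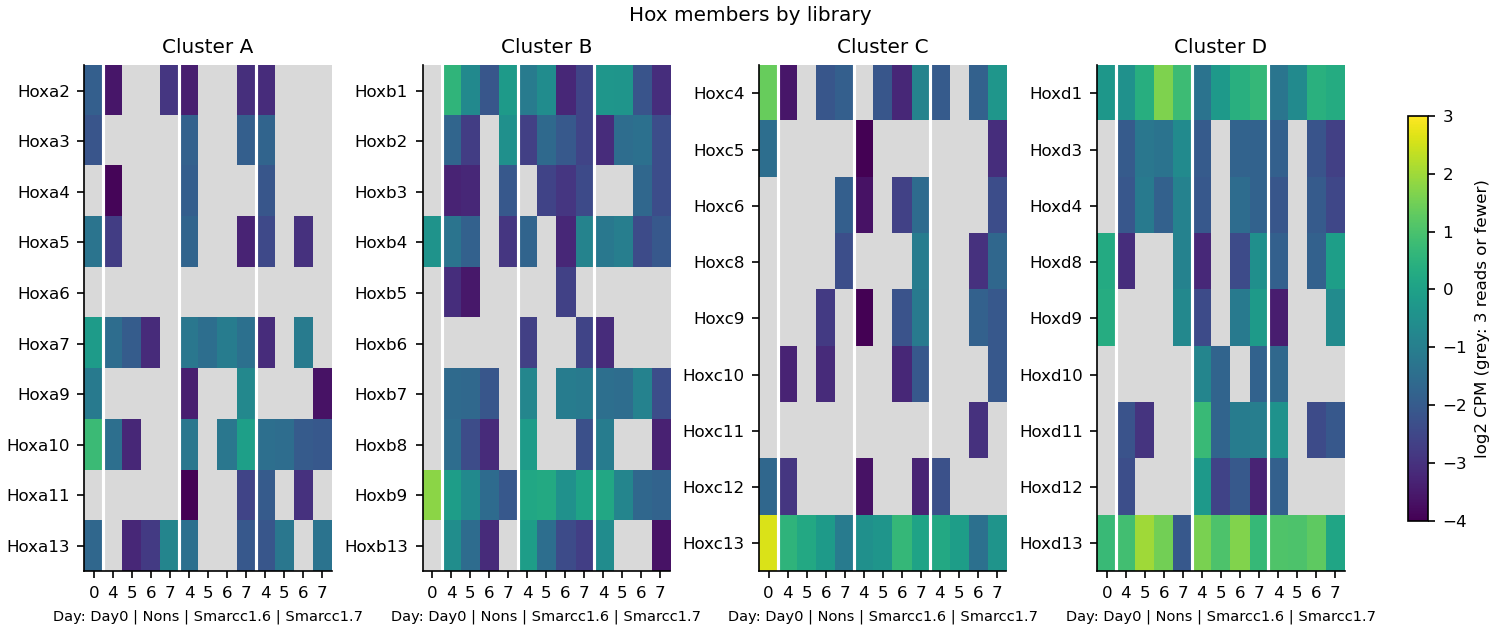
Heat map of log2 CPM for the 38 Hox genes (vertical axis, by cluster and paralogue number) in the 13 libraries (horizontal axis), with cells of 3 reads or fewer in grey. Many cells are grey or dark blue (low), and the green to yellow cells (high) that run across most libraries lie at Hoxb9, Hoxc13, Hoxd1 and Hoxd13.

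The composition of this small pool moved from posterior towards anterior genes in Nons, and less so with the hairpins. In Nons, posterior genes held 54.0%, 60.8%, 48.8% and 25.7% of all Hox reads on days 4, 5, 6 and 7, and anterior genes 32.8%, 30.8%, 45.7% and 61.9%. In Smarcc1.6 the posterior share was 66.4%, 61.6%, 63.8% and 53.9%, and in Smarcc1.7 it was 60.8%, 56.7%, 46.4% and 45.8%. The anterior share was 16.3%, 29.3%, 22.9% and 27.2% in Smarcc1.6 and 25.7%, 29.9%, 35.3% and 33.5% in Smarcc1.7. With both hairpins it stayed below the posterior share on every day. In Nons Hoxd13 went from 101 reads on day 6 to 7 reads in the single day 7 library. The posterior share was thus lowest on day 7 in each of the 3 groups, and on each of days 4 and 7 it was lower in Nons than with either hairpin. The member with most reads was Hoxd13 in all 3 groups on days 4 and 5. On day 6 it was Hoxd1 in Nons and Hoxd13 with both hairpins, and on day 7 it was Hoxd1 in Nons and Smarcc1.7 and Hoxd13 in Smarcc1.6. No test was made of these shares, whose members are the same genes tested singly further on.

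Divided by exon length, which allows levels to be compared between genes, Hoxd1 and Hoxd13 led in Nons with 0.932 ± 0.556 and 0.902 ± 0.645 CPM per kb (mean ± SD over 4 days). Hoxc13 followed with 0.406 ± 0.173 and Hoxb1 with 0.347 ± 0.229 CPM per kb. The SDs over days exceed the gaps between neighbours in this order. Hoxd13 was the member highest per kb with both hairpins, at 0.992 CPM per kb in Smarcc1.6 and 0.769 in Smarcc1.7. In Day0 the order was different, with Hoxc13 at 2.48, Hoxb9 at 1.32 and Hoxc4 at 1.01 CPM per kb.

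Onset was described as the first day on which a member reached 1 CPM (log2 CPM of 0) and stayed there on every later day, with no test. In Nons 1 of 38 members had such an onset, Hoxd1 on day 5. In Smarcc1.7 the count was 2, with Hoxd13 from day 4 and Hoxd1 on day 6. In Smarcc1.6 it was 4, with Hoxd13 from day 4, Hoxc13 and Hoxd1 on day 6 and Hoxb9 on day 7. Hoxb9 was also above 1 CPM on days 4 and 5 of that group, and without the day 6 libraries its onset moved to day 4 and that of Hoxc13 to day 7. Without them Hoxd1 had its onset on day 7 with both hairpins. Hoxb9, Hoxc13 and Hoxd13 were already above 1 CPM in Day0, so for them the word describes a return to that level or its continuation. In cluster D Hoxd13 was above 1 CPM on day 4 in all groups, when Hoxd1 was not. In Nons Hoxd13 had no onset by this rule, since it stood below 1 CPM on day 7. Central genes had no onset at this level in any group. At a lower level of -1 log2 CPM the counts were 8, 10 and 6 in Nons, Smarcc1.6 and Smarcc1.7, and Hoxd8 and Hoxd9 then had an onset on day 7 in all 3 groups. At a log2 CPM of 1 the count was 0 in each group. Counting error was no part of the rule, and several calls turned on values close to 1 CPM. On day 7 Hoxb9 and Hoxc13 stood at 0.06 log2 CPM in Smarcc1.6, and Hoxd13 at 0.115 in Smarcc1.7. On day 5 Hoxd1 held 26 reads in Smarcc1.6 (-0.22) and 9 in Smarcc1.7 (-0.64), under the level. Its onsets on day 5 in Nons and day 6 with the hairpins were therefore not shown to differ.

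For a test, limma was fitted to the deposited log2 CPM of the 12 libraries of days 4 to 7, with Benjamini-Hochberg adjustment over all rows tested and a threshold of 0.05. Rows averaging 0 log2 CPM or more over these libraries were tested first, which kept 13406 rows and 2 members, Hoxd1 and Hoxd13. Because 36 members failed that filter, the same fit over all 25965 rows is given for them. Changes are in log2 units. For members at 0 reads in a library they depend on the value written for 0 and are no bound on a fold. In the fit of all rows the median row itself moved by 0.25 from day 4 to day 5 and by -0.37 from day 5 to day 7, beside 0.06 and 0.05 among the filtered rows.

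Hoxd1, the most anterior gene of cluster D, rose over the time course. Of the filtered rows, 34.9% rose per day and 25.6% fell, so a rise as such does not set this gene apart. Hoxd1 lies at the 3′ end of cluster D (chromosome 2, 74762980 to 74765143, plus strand). In Nons it held 43, 61, 111 and 52 reads on days 4, 5, 6 and 7, which is 0.721, 1.31, 3.15 and 1.75 CPM. In Smarcc1.6 it held 25, 26, 50 and 93 reads (0.393, 0.858, 1.34 and 1.59 CPM), and in Smarcc1.7 18, 9, 43 and 63 reads (0.414, 0.643, 1.35 and 1.24 CPM). Day0 had 18 reads, or 0.808 CPM. In each group days 6 and 7 lay above days 4 and 5, and Nons was the highest group on every day. The change was 0.59 ± 0.12 (SE) per day (limma, adjusted p = 0.00171). It passed in each of 12 fits that left out 1 library (adjusted p of at most 0.00791), but not within a single group of 4 libraries. Hoxd1 also rose from day 4 to day 5, by 0.88 ± 0.29 (limma, adjusted p = 0.0423), a step at which 18.9% of filtered rows rose, and from day 5 to day 7 by 0.75 ± 0.29 (limma, adjusted p = 0.0413), where 35.1% rose. Both steps rest on few libraries: without any 1 of 8 libraries the first did not pass (adjusted p up to 0.135 without Smarcc1.6 day 4), nor the second without any 1 of 9 (up to 0.160 without Smarcc1.6 day 7).

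The paralogue 1 gene of cluster B went the other way. Hoxb1, which patterns the hindbrain, had 0 reads in Day0, which allows up to 3 reads. It held 89, 29, 8 and 26 reads in Nons (1.49, 0.625, 0.227 and 0.876 CPM), 30, 20, 4 and 10 in Smarcc1.6 and 35, 11, 7 and 6 in Smarcc1.7. It was detected in all 12 libraries, with its Nons and Smarcc1.7 peaks on day 4 and the Smarcc1.6 peak, 0.660 CPM, on day 5. The change was -0.70 ± 0.23 per day (limma over all rows, adjusted p = 0.0310), and it did not pass without the day 4 library of any group (0.0519 to 0.0838) or without Smarcc1.7 day 7 (0.104). Thus Hoxd1 rose between day 4 and day 7 while Hoxb1 fell. The opposite-strand row 6720416L17Rik (74748422 to 74762896), named after its values were seen, starts just before the first base of Hoxd1 and runs the other way. It rose by 0.90 ± 0.20 per day (limma over all rows, adjusted p = 0.00305). The sources used here do not say whether counting used strand, but the rows of 6720416L17Rik and Hoxd1 do not overlap.

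The promoters of these genes, and of the posterior cluster D genes described further on, are shown because their levels moved in different directions. Each runs from 250 bases before to 50 after a RefSeq start in GRCm38.p6, 5′ to 3′ on the plus strand. Capitals mark matches, on either strand, to TATAAA (a core promoter box), to CCAAT (a box of many housekeeping promoters), to AGGTCA (a core of retinoic acid receptor sites) or to TTTATG (a core of Cdx sites).
Hoxd1, chr2:74762730-74763029: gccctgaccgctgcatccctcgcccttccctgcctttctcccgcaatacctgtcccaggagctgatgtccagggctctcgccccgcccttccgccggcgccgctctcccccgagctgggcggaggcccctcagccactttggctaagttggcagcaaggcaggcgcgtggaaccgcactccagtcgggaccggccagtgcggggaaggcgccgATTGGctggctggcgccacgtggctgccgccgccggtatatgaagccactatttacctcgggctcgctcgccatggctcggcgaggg
Hoxb1, chr11:96365508-96365807: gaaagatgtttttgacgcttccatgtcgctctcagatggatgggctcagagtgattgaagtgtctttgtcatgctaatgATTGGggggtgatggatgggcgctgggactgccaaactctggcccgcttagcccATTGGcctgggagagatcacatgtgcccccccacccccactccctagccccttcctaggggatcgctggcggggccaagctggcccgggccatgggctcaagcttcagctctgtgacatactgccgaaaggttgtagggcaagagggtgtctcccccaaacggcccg
Hoxd13, chr2:74667975-74668274: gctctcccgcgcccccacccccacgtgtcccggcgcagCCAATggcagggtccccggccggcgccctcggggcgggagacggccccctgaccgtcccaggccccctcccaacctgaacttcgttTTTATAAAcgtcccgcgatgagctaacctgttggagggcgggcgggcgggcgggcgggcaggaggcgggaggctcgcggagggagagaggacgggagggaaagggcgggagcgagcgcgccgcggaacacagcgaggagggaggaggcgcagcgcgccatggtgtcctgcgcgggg
Hoxd11, chr2:74679308-74679607: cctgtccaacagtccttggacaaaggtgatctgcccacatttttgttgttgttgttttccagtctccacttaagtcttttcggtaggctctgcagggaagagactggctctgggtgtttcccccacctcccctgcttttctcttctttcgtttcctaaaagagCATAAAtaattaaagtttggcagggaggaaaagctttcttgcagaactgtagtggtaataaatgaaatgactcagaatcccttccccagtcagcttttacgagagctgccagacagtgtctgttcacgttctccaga

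The Hoxd1 and Hoxd13 windows are rich in G and C (69.7% and 74.3%, with 29 and 37 CpG dinucleotides), the Hoxb1 window less so (59.3%, 10 CpG) and the Hoxd11 window least (45.7%, 4 CpG). CCAAT, written ATTGG when on the minus strand, occurs in the windows of Hoxd1, Hoxb1 and Hoxd13. TATAAA occurs in that of Hoxd13 as an overlapping pair on both strands, and TTTATG, read as CATAAA, in that of Hoxd11. RefSeq gives Hoxd11 another start, 2931 bases into its row, whose window has 62.0% GC and 25 CpG and holds none of these letters. The RefSeq table matched 22 Hox genes with 24 promoters. CCAAT occurs in 15 of these 24 and in 37.4% of all 32851 promoters, TATAAA in 4 and 13.6%, AGGTCA in 7 and 16.3%, and TTTATG in 5 and 11.9%. The median GC content of the 24 was 57.7%, against 52.7% over all promoters, and the median number of CpG 14.5 against 7.0.

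Over all 38 members, 13 passed the threshold for a change per day in the fit of all rows. Of these, 5 rose, where 20.9% of all rows did, and 8 fell, where 17.9% did. The median change of the 38 was -0.12 per day, against 0.05 over all rows. The calls split by cluster: the 4 in cluster B (Hoxb1, Hoxb8, Hoxb9 and Hoxb13) fell, and the 4 in cluster C (Hoxc4, Hoxc6, Hoxc8 and Hoxc9) rose. In cluster D Hoxd1 rose, while Hoxd10, Hoxd11 and Hoxd12 fell, and in cluster A Hoxa4 fell. By position, 4 of the 5 that rose had paralogue numbers of 8 or lower, and 5 of the 8 that fell had numbers of 9 or higher. Of all 38 members, 11 were anterior, 11 central and 16 posterior. So few calls do not set a part of the clusters apart, and position was not tested. Hoxd1 and Hoxb13 passed in every fit that left out 1 library, whereas leaving out Smarcc1.6 day 4 left 4 of the 13 past the threshold.

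**Figure D2:**
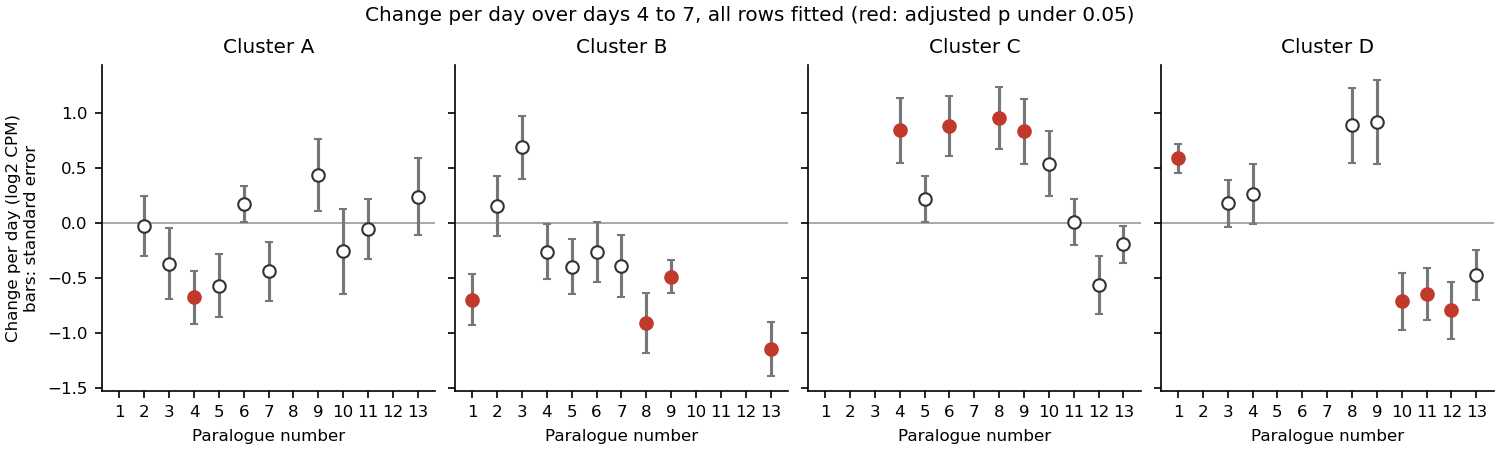
Change in log2 CPM per day (vertical axis, estimate ± SE from limma over all rows) against paralogue number (horizontal axis), one panel per cluster, with red for an adjusted p under 0.05. Red points of cluster B lie below 0 and those of cluster C above it, and in cluster D Hoxd1 (0.59) lies above 0 and Hoxd10 to Hoxd12 below.

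The rise of the cluster C genes and of Hoxd8 and Hoxd9 in cluster D came late. These are genes of cervical to thoracic and limb patterning, and most of their libraries before day 7 held few reads. Hoxc8 held 3, 1, 0 and 6 reads in Nons, 0, 0, 0 and 28 in Smarcc1.6 and 3, 1, 4 and 16 in Smarcc1.7. Hoxc6 held 0, 1, 0 and 8 reads, 5, 0, 6 and 20, and 2, 1, 0 and 10 in the same order. Hoxc4, which stood at 58 reads or 2.60 CPM in Day0, held 5, 0, 8 and 8, then 3, 7, 4 and 32, and then 11, 0, 9 and 41. In each of these 3 genes the day 7 library had at least as many reads as any other day of its group. With the 3 libraries of a day added up, Hoxc8 went from 2 reads on day 5 to 50 on day 7, a depth-corrected ratio of 16.3 (95% exact binomial interval 4.28 to 138, counting error only). For Hoxc4 the same ratio was 7.55 (3.50 to 19.4). Hoxc6, Hoxc8 and Hoxc9 overlap Gm20398 on the same strand, which held at most 5 reads in a library of days 4 to 7, so reads may be shared.

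Hoxd8 and Hoxd9 showed the steepest step. Hoxd8 (chromosome 2, 74704615 to 74707933) held 7, 1, 3 and 16 reads in Nons, 7, 0, 7 and 41 in Smarcc1.6 and 12, 1, 9 and 48 in Smarcc1.7. Hoxd9, upstream of it in the cluster, held 3, 3, 1 and 18 reads, 12, 0, 17 and 52, and 4, 1, 1 and 33. Day 7 was the highest day in all 3 groups for both, at 0.539 to 0.945 CPM for Hoxd8 and 0.607 to 0.886 CPM for Hoxd9, below their 1.21 and 1.26 CPM in Day0. Between day 5 and day 7 their fitted changes were 4.31 ± 0.58 and 3.77 ± 0.85 (limma over all rows, adjusted p = 2.3e-05 and 0.00212). As summed reads Hoxd8 went from 2 to 105, a ratio of 34.2 (9.25 to 286). Hoxc4, Hoxc6, Hoxc8 and Hoxc9 also rose at this step, which makes 6 of 38 members, where 20.4% of all rows rose. Hoxd13 alone among members fell, where 19.3% of all rows did. Without Nons day 5 (2.16, at the threshold) or Smarcc1.7 day 5 (2.44, 0.0692) Hoxc4 did not pass, nor did Hoxc9 without any 1 of 5 libraries (up to 0.249 without Smarcc1.6 day 7).

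From day 4 to day 5, 3 members fell in the fit of all rows, Hoxa4, Hoxa5 and Hoxd8, where 7.14% of all rows did. Hoxa5, a gene of lung and cervical patterning, held 9, 19 and 8 reads in Nons, Smarcc1.6 and Smarcc1.7 on day 4 and 0 in all 3 on day 5. Against a floor of 3 reads over the 3 libraries it was 6.53-fold lower or more, a value that takes its 36 reads of day 4 as exact. Hoxa4 went from 31 reads in all to 1, a ratio of 0.0593 (0.00145 to 0.356), and Hoxd8 from 26 to 2, a ratio of 0.141 (0.0163 to 0.565). Hoxa4 and Hoxa5 lie inside the longer Hoxa3 row on the same strand, so their reads may be shared. The 3 calls were lost without Smarcc1.6 day 5 (adjusted p = 0.163, 0.0695 and 0.0673), and those of Hoxa4 and Hoxa5 also without Smarcc1.6 day 4 (0.0854 and 0.0627). Without Smarcc1.7 day 4 Hoxa4 (0.131) and Hoxd8 (0.0948) did not pass, nor did Hoxd8 without Nons day 4 (0.0777).

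Hoxd13 was the most strongly read posterior member. It is the last gene of cluster D (chromosome 2, 74668310 to 74671599, plus strand) and shapes digits and the genital bud in the embryo. In Nons it held 110, 186, 101 and 7 reads on days 4 to 7 (1.85, 4.01, 2.87 and 0.236 CPM). It held 191, 63, 118 and 94 in Smarcc1.6 (3.01, 2.08, 3.17 and 1.602 CPM) and 91, 29, 76 and 55 in Smarcc1.7 (2.09, 2.07, 2.39 and 1.08 CPM). Day0 had 37 reads, or 1.66 CPM. Day 7 was the lowest day in every group, and the Nons day 7 library stood furthest down. Hoxd13 fell by 1.80 ± 0.56 from day 5 to day 7 (limma, adjusted p = 0.0149), where 30.7% of filtered rows fell. Its change per day of -0.47 ± 0.24 did not pass (adjusted p = 0.106). Without Nons day 5 the change from day 5 was -1.16 and did not pass (adjusted p = 0.0853), and without Nons day 7 it was -0.91 and passed (0.0369).

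**Figure D3:**
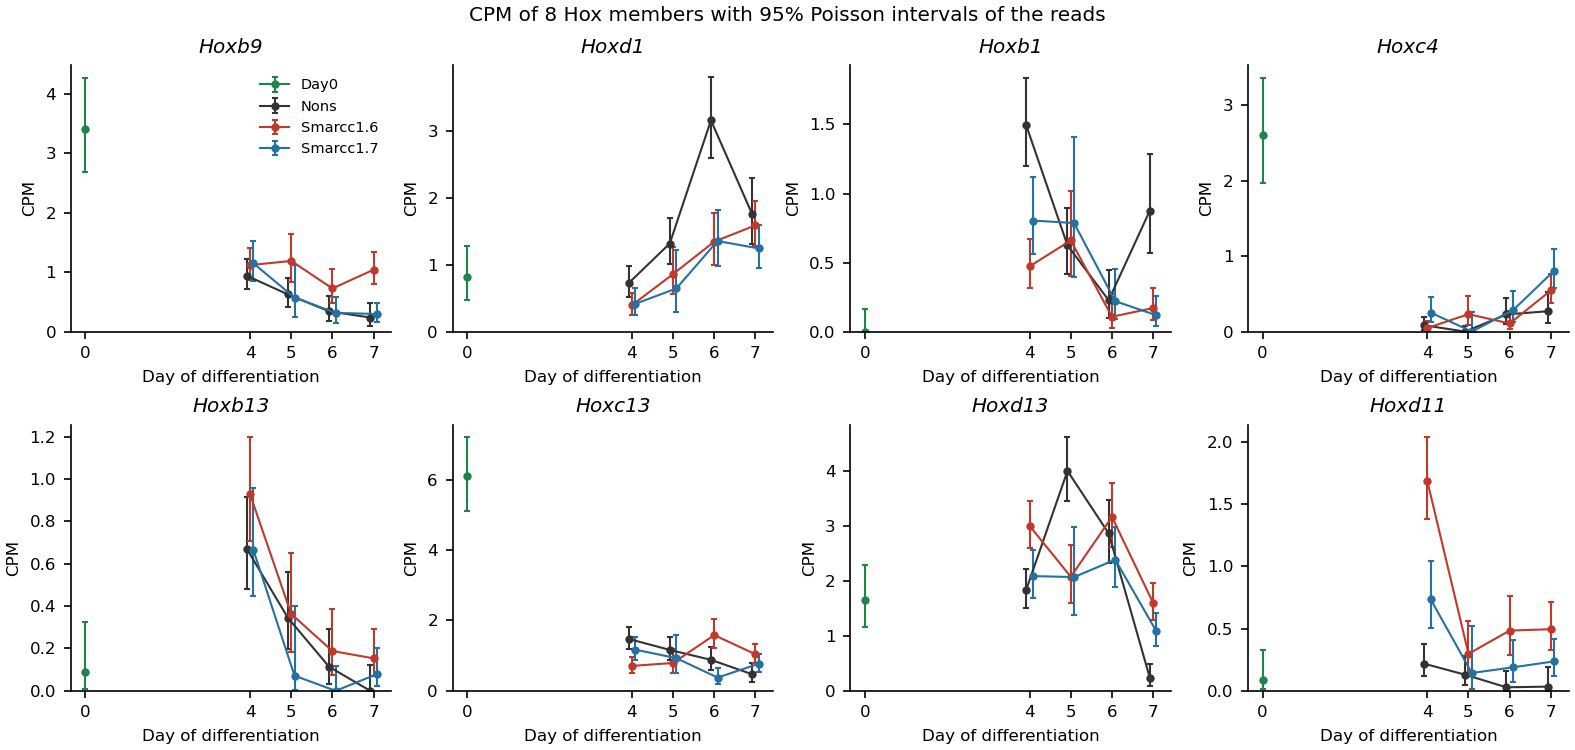
CPM (vertical axis, with 95% Poisson intervals for counting error) of 8 Hox genes against day (horizontal axis) in Day0 (green), Nons (black), Smarcc1.6 (red) and Smarcc1.7 (blue). Hoxd1 lies higher on days 6 and 7 than on days 4 and 5 in each group, while Hoxd13 is lowest on day 7 in each group.

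Genes of the 5′ part of cluster B also fell. Hoxb13, the last gene of cluster B and known from tail and prostate development, held 40, 16, 4 and 0 reads in Nons, 59, 11, 7 and 9 in Smarcc1.6 and 29, 1, 0 and 4 in Smarcc1.7. Day 4 was its highest day in each group, and Day0 had 2 reads. It fell by 1.14 ± 0.25 per day (limma over all rows, adjusted p = 0.00249), with an adjusted p of at most 0.0140 when any 1 library was left out. Hoxb9, a thoracic gene, held 56, 29, 12 and 7 reads in Nons, 71, 36, 27 and 61 in Smarcc1.6 and 50, 8, 10 and 15 in Smarcc1.7, below the 3.41 CPM (76 reads) of Day0. It fell by 0.49 ± 0.15 per day (adjusted p = 0.0198), which did not pass without Nons day 4 (0.0727), Nons day 7 (0.0517) or Smarcc1.7 day 4 (0.0881). Hoxb8, which overlaps Hoxb7 on the same strand so that reads may be shared, fell by 0.91 ± 0.27 per day (adjusted p = 0.0186). Hoxc13, a gene of hair and nail, went from 136 reads (6.10 CPM) in Day0 to 88, 54, 31 and 14 in Nons, or 1.48, 1.16, 0.880 and 0.472 CPM. With the hairpins it held 45, 24, 59 and 61 and 51, 13, 12 and 39 reads, and its change per day did not pass the threshold.

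The remaining calls rest on few reads. Hoxd10, Hoxd11 and Hoxd12 changed by -0.71 ± 0.26, -0.65 ± 0.24 and -0.79 ± 0.26 per day (limma over all rows, adjusted p = 0.0462, 0.0490 and 0.0276). Hoxc4, Hoxc6, Hoxc8 and Hoxc9 changed by 0.84 ± 0.30, 0.88 ± 0.27, 0.95 ± 0.29 and 0.83 ± 0.29 (adjusted p = 0.0397, 0.0207, 0.0181 and 0.0397), and Hoxa4 by -0.68 ± 0.24 (adjusted p = 0.0440). With 1 library left out, Hoxc9 lost its call in 10 of 12 fits, Hoxa4 in 9, Hoxd10 and Hoxd11 in 8 each and Hoxc4 in 5. Hoxc6, Hoxb8 and Hoxd12 lost it in 4 each and Hoxc8 in 3, the last without Nons day 7 (0.0591), Smarcc1.6 day 4 (0.0547) or Smarcc1.6 day 7 (0.63 per day, 0.0764). Limma-voom on the recovered reads, over all rows, kept these calls except those of Hoxa4 (adjusted p = 0.202) and Hoxc6 (0.0694). Without the 3 day 6 libraries Hoxa4, Hoxc4, Hoxc9, Hoxd10 and Hoxd11 did not pass.

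With Smarcc1 depleted, Hoxd1 was lower. It lay below the Nons library of the same day in 8 of 8 comparisons, by between 0.14 and 1.23 on the log2 scale, which 7.1% of filtered rows also did. Averaged over both hairpins, Hoxd1 differed from Nons by -0.80 ± 0.21 (limma with day as a factor, adjusted p = 0.0334), where 4.77% of filtered rows were lower. Hoxd13 differed by 0.48 ± 0.41 (adjusted p = 0.486), with overlapping groups, and without Nons day 7 by -0.19. Hoxd1 did not pass over all rows (adjusted p = 0.0846), nor without any 1 of Nons day 4 (0.0592), day 5 (0.110) or day 6 (-0.66, 0.161), Smarcc1.6 day 4 (0.0576) or day 6 (0.0693), or Smarcc1.7 day 4 (0.0536), day 5 (0.0556) or day 6 (0.0655). It did not pass without the 3 day 6 libraries either (-0.66, 0.217).

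Each hairpin taken alone gave Hoxd1 a difference of -0.72 ± 0.25 (Smarcc1.6, adjusted p = 0.107) and -0.89 ± 0.25 (Smarcc1.7, adjusted p = 0.0890). No member passed for either hairpin among the filtered rows, of which 9.3% were called for Smarcc1.6 and 2.45% for Smarcc1.7. At an unadjusted p under 0.05, 1 of the 2 tested members, Hoxd1, passed for each hairpin. Between the hairpins limma called 0% of the 13406 filtered rows, with 530 rows and 0 members at an unadjusted p under 0.05, and limma-voom called 0 with 594 such rows. Hoxd1 differed between them by 0.17 ± 0.25. For the interaction of knockdown and day, 3.75% of filtered rows and 0 of the 2 members were called. Hoxd13 came nearest, at 0.70 ± 0.31 per day (limma, unadjusted p = 0.0412, adjusted p = 0.241), and limma-voom also called 0 members, with 0 at an unadjusted p under 0.05.

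Hoxd11 was higher with the hairpins, and Hoxd10 with Smarcc1.6. Hoxd11, a gene of forearm and kidney development (chromosome 2, 74679392 to 74687741, plus strand), held 13, 6, 1 and 1 reads in Nons on days 4 to 7. It held 107, 9, 18 and 29 reads in Smarcc1.6 and 32, 2, 6 and 12 in Smarcc1.7. In CPM these are 0.218, 0.129, 0.0284 and 0.0337 in Nons, 1.68, 0.297, 0.483 and 0.494 in Smarcc1.6, and 0.735, 0.143, 0.189 and 0.236 in Smarcc1.7. It was higher than same-day Nons in 8 of 8 comparisons, by between 0.15 and 4.09 on the log2 scale, which 5.68% of all rows also were, but Nons days 6 and 7 and Smarcc1.7 day 5 were at or under the floor. In the fit of all rows, where 4.12% of rows were higher, Hoxd11 was the single member called, at 2.44 ± 0.54 (limma, adjusted p = 0.0123, and 0.0212 by limma-voom). It did not pass without Nons day 6 (2.12, adjusted p = 0.0687), nor on a scale of log2(CPM + 1), where the difference was 0.42 (0.189), nor without the 3 day 6 libraries (2.12, 0.0748).

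For Smarcc1.6 alone Hoxd11 differed by 3.03 ± 0.57 (limma over all rows, adjusted p = 0.00569) and passed in each fit that left out 1 library, but not on the log2(CPM + 1) scale (0.60, 0.0929). Hoxd10 differed by 2.47 ± 0.68 (adjusted p = 0.0444), where 3.86% of all rows were higher for this hairpin. Hoxd10 held 36, 9, 2 and 17 reads in Smarcc1.6, against 3, 3, 1 and 0 in Nons and 14, 0, 2 and 0 in Smarcc1.7, and without any 1 of 9 libraries it did not pass (adjusted p up to 0.155 without Smarcc1.6 day 7), nor by limma-voom (0.0703) or on the log2(CPM + 1) scale (0.161). Hoxd12 held 54, 5, 9 and 6 reads in Smarcc1.6 and 12, 2, 0 and 3 in Smarcc1.7, against 12, 1, 3 and 0 in Nons, a difference for Smarcc1.6 of 2.07 (adjusted p = 0.0729). For Smarcc1.7 Hoxd11 differed by 1.86 ± 0.57 (adjusted p = 0.119). Hoxd10 and Hoxd11 overlap Gm20440 on the same strand, which was also higher with the hairpins (1.74, adjusted p = 0.0427), so reads of the 3 rows may be shared.

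**Figure D4:**
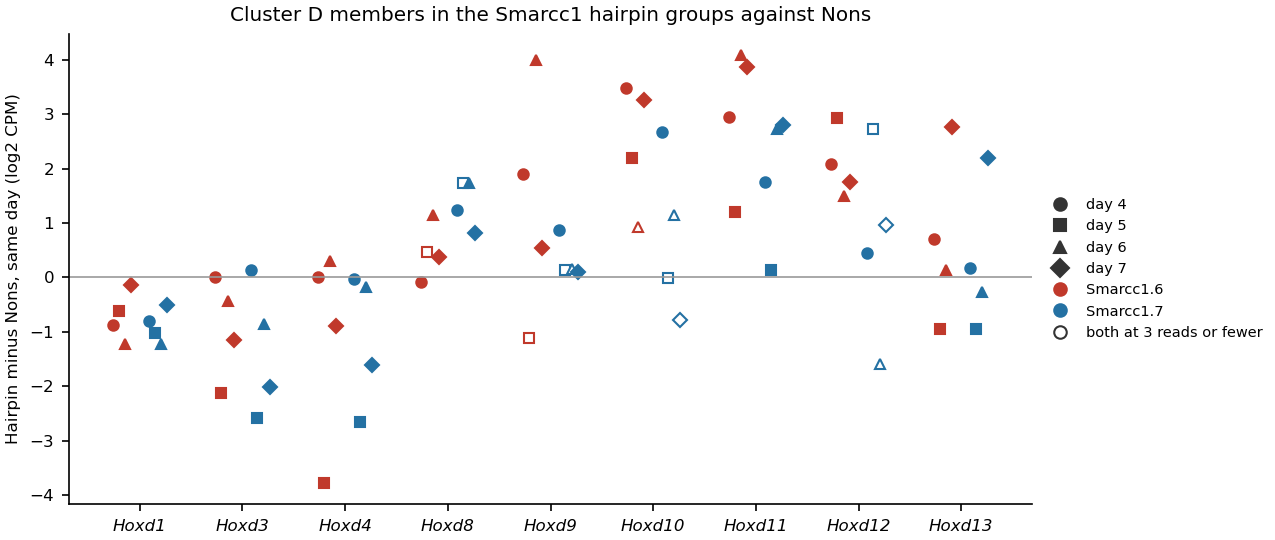
Difference in log2 CPM between each hairpin library and the Nons library of the same day (vertical axis) for the 9 genes of cluster D (horizontal axis), with open points where both libraries had 3 reads or fewer. Hoxd1 lies below 0 in 8 of 8 points and Hoxd11 above 0 in 8 of 8.

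Across all 38 members, 32 had a fitted difference above 0 for the knockdown. The median of the 38 was 0.61, against 0.11 over all rows. Hotair, a cluster C row with 0 reads in each of the 12 libraries, also had 0.13. That value comes from depth and the value written for 0, so the count above 0 is no result about the members. At an unadjusted p under 0.05, 13 members passed, where 19% of all rows did, and 10 of these were higher, where 10.8% of all rows were. The others, Hoxb1, Hoxd1 and Hoxd3, were lower. Hoxa5, Hoxa9 and Hoxc5 were also higher in 8 of 8 comparisons, but by as little as 0.07, which is the step from the value written for 0 reads in Nons to 1 read in the deeper Smarcc1.6 library of day 6. Hoxa9 held 1, 1, 0 and 0 reads in Nons and 6, 0, 1 and 35 in Smarcc1.6. Hoxd3 and Hoxd4, which overlap on the same strand, had nearly the same reads. In Nons these were 15, 20, 14 and 19 and 14, 21, 10 and 16 reads. Each was lower than same-day Nons in 6 of 8 comparisons. Neither passed for the knockdown (-1.13 and -1.11, limma over all rows, adjusted p = 0.176 and 0.278).

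Inside the clusters lie 24 other rows of the table, 7 in A, 7 in B, 4 in C and 6 in D. One of them, Gm53 in cluster B, passed the filter. Gm53 stood at 3.66 log2 CPM in Day0 and changed by -0.53 per day (limma, adjusted p = 0.0223). Of the nearest rows outside the clusters at that level, Ttll6, a tubulin-modifying enzyme gene 28.9 kb from cluster B, fell by 0.79 per day (adjusted p = 0.00122) and was higher with the hairpins by 1.43 (adjusted p = 0.0142). Skap2, 149.8 kb from cluster A, fell by 0.21 per day (adjusted p = 0.00536), and Gm11537, 398.5 kb from cluster B, by 0.48 (adjusted p = 0.00176). The flanking genes of clusters C and D, Calcoco1, Smug1, Lnp and Mtx2, had levels that reached the filter, as did 5730457N03Rik on the other side of cluster A. In the fit of all rows 5730457N03Rik had an interaction of knockdown and day of -1.51 per day (limma, adjusted p = 0.0202). Smug1 rose by 0.48 from day 5 to day 7 (limma over all rows, adjusted p = 0.0144), where 20.4% of all rows rose.

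Genes that act with or upstream of Hox genes were better measured, and the counts called can be read against 34.9% of filtered rows that rose per day and 25.6% that fell. For the knockdown 6.88% of filtered rows were higher and 4.77% lower. Of 9 TALE cofactors, the homeodomain partners of Hox proteins, 3 rose and 2 fell per day, with Meis3 up by 0.76 (limma, adjusted p = 0.000177) and Meis2 down by 0.45 (0.0487). With the hairpins Pknox2 was higher (0.88, adjusted p = 0.0258), and Meis3 (-0.62, 0.0246) and Pbx3 (-0.32, 0.0470) were lower. Of 11 inducers of posterior identity 7 were tested, and 4 rose, with Fgf8 up by 1.17 per day (adjusted p = 2.76e-05). With the hairpins T (-2.50, adjusted p = 0.0341), Fgf8 (-1.88, 0.00186) and Wnt3 (-1.39, 0.00311) were lower and none was higher. Of 11 retinoic acid genes 8 were tested, with Dhrs3 up by 0.77 per day (adjusted p = 0.000104), Rara and Rarg down, the latter by 0.67 (6.85e-06), and Rarg higher with the hairpins (0.51, 0.00784). Of 16 Polycomb and trithorax genes 3 rose, led by Ring1 (0.35, adjusted p = 0.00273), and 9 fell, led by Bmi1 (-0.81, 7.95e-06). One of the 16, Jarid2, was higher with the hairpins (0.33, adjusted p = 0.0147). The list medians were 0.18, 0.69, 0.04 and -0.18 per day in this order, and -0.15, -0.59, -0.08 and 0.06 for the knockdown, against 0.04 and -0.01 over all filtered rows.

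Markers of the cell types a differentiating culture can hold moved along the same days and with the same hairpins. The 6 markers of undifferentiated mESCs summed to 4279 CPM in Day0, 1083 to 1730 in Nons, 1346 to 2520 in Smarcc1.6 and 1084 to 2093 in Smarcc1.7. Of these 6, 4 fell per day, with Esrrb down by 1.32 (limma, adjusted p = 2.58e-08), and 4 were higher with the hairpins (Sox2 by 0.69, Zfp42 by 1.11, Esrrb by 1.00 and Klf4 by 1.40). Pou5f1 and Nanog were called in neither comparison. In Nons Pou5f1 was the highest of the 6 on every day, at 9.64 to 10.54 log2 CPM. Nanog went from 6.43 on day 4 to 7.94 on day 7 of that group. The 8 fibroblast markers summed to 11.7 CPM in Day0, 10.1 to 94.1 in Nons, 34.9 to 192 in Smarcc1.6 and 20.4 to 192 in Smarcc1.7. Of their 4 tested members, Thy1 (0.83) and Col1a2 (2.82) were higher with the hairpins, Col1a1 rose by 2.21 per day and Dcn fell by 0.74. Trophoblast markers summed to between 46.8 and 3520 CPM in Nons, and 3 of 4 tested rose, with Krt8 up by 2.57 per day and lower with the hairpins by 0.50. Krt8 and Krt18 carried most of that upper sum, at 11.07 and 10.38 log2 CPM in Nons on day 7. In that library Cdx2 and Tfap2c stood at 2.48 and 5.15, below their 2.74 and 6.46 in Day0, and Elf5 at -0.80. The sum is thus no measure of the list as a whole. Sox17 of the extraembryonic endoderm list rose by 0.51 per day and was lower with the hairpins by 0.88. Sox1 of the hindbrain neural list was higher with the hairpins (2.07, adjusted p = 0.0478), as was Tcf15 of the paraxial mesoderm list (1.00), while Meox1 fell by 1.81 per day. Of 3 tested lateral plate mesoderm genes 2 rose, with Gata4 up by 0.86 per day, and none was called for the knockdown. The part of these cell types in the Hox values was not tested.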

How the data were processed

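RNA-seq libraries were made by the authors with the TruSeq kit, sequenced as paired reads on a NextSeq500, trimmed with trim_galore and aligned with tophat or hisat2 to mm10 with FVB/NJ and CAST/EiJ variants masked. The submitters' processing notes name TopHat2 2.0.12 and bcl2fastq. The authors quantified genes in Seqmonk and deposited the values as log2 CPM (counts per library scaled to a common size), both alleles together. The strand setting and annotation release are not given in the sources used here.

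Groups and days came from the sample titles, and the 4 days served as the replicates of a group. Reads were recovered from the steps of the deposited values (100% whole within 0.02 of a read). Depth was 13993440 to 63548092 reads per library, and intervals and floors (3 reads) cover counting error only, since reads carry no molecular identifiers. Day0 entered no test. Limma 3.58.1 (R 4.3.3, lmFit and eBayes with trend) was fitted to log2 CPM with group and day, on rows with a mean of at least 0 and, as an alternative, on all rows. The fits were tested on simulated data. Alternatives were a stricter filter, log2(CPM + 1), centring on the autosomal median, no trend, limma-voom on recovered reads, leaving out each library or day 6, single groups and other onset levels. The versions of these over all rows were chosen after seeing the data. All members were named, together with rows inside or flanking the clusters at a mean of at least 0 and, from each list, genes called for the knockdown and the largest called rise and fall per day. Exon lengths came from GENCODE M21 and promoters from RefSeq. 1 row that matches the naming rule is not reported here. The members and lists were chosen with earlier results of these data known. Foxf1 was not matched, and Mll1 and Kmt2a are the same gene.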

Additional observations from a re-analysis of the deposited data

Results flagged for a closer look

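In groups of 4 libraries, 5 of the 102 tested sets of values with at least 1 library over the floor had a lowest library far from the other 3 by Dixon's ratio of gap to range, where chance gives about 1 in 20. Hoxb3 lay at -5.99 log2 CPM in Smarcc1.6 on day 4 (1 read), with the next library at -2.90. Hoxb7 lay at -5.04 in Nons on day 7 (0 reads, next -2.14) and at -3.34 in Smarcc1.6 on day 5 (3 reads, next -1.12). Hoxd3 and Hoxd4, which overlap, lay at -3.34 (3 reads) and -4.92 (1 read) in Smarcc1.6 on day 5, with the next libraries at -1.99 and -2.08. Each of these 5 libraries was at or under the floor.

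Day0 entered no limma fit and is set beside the other libraries as description. In it, 7 of the 38 members had a 95% Poisson interval above that of each Nons library (18.4%, beside 10.8% of all rows). Hoxc13 stood at 6.10 CPM (highest Nons library 1.48), Hoxb9 at 3.41 (0.939) and Hoxc4 at 2.60 (0.270). Hoxa10 stood at 1.71 CPM (0.369), Hoxa7 at 0.897 (0.352), Hoxa9 at 0.449 (0.0215) and Hoxc5 at 0.359 (0.0168). Day0 is 1 library, so the difference has no replicate check.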

How the results depend on the processing

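Of the values of single members under other settings, 434 kept their direction and side of the threshold, 184 no longer passed it, 4 newly passed it and 1 changed sign: without Nons day 7 the knockdown difference of Hoxd13 was -0.19 instead of 0.48 (range over 12 such fits -0.19 to 0.95). Fits over all rows called 13 members instead of 1 for the change per day, 3 instead of 1 for day 5 against day 4, 7 instead of 2 for day 7 against day 5 and 2 instead of 0 for Smarcc1.6. The filter at a mean of 1 left no member. Within Nons, Smarcc1.6 or Smarcc1.7 alone 0 filtered members passed per day, and over all rows 0 passed within Smarcc1.6 or Smarcc1.7. With log2(CPM + 1), 0 passed for day 5 against day 4, 1 for day 7 against day 5 and, over all rows, 0 for the knockdown and 0 for Smarcc1.6. Centring gave 0 for day 5 against day 4, 1 for day 7 against day 5 and 2 for the knockdown over all rows. Without the day 6 libraries 0 passed for the knockdown (Hoxd1 -0.66, adjusted p = 0.217), 0 over all rows (Hoxd11 2.12, 0.0748) and 1 for Smarcc1.6 over all rows, and 2 passed per day, with Hoxd13 added (-0.59, 0.0492), as did 2 for day 7 minus day 4 (Hoxd13 -1.61, 0.0226). Without a day factor 0 passed for the knockdown. Without trend 1 passed for each hairpin (Hoxd1), 0 for the knockdown over all rows and 1 for Smarcc1.6 over all rows. Limma-voom over all rows called 4 for the knockdown (Hoxd11, Hoxd1, Hoxa11 and Hoxb6). The share of all rows it called is not given here, so this count is no result about the members. Leaving out 1 library gave 0 to 1 for day 5 against day 4, 0 to 2 for day 7 against day 5, 0 to 1 for the knockdown and 0 to 1 for the interaction. Over all rows it gave 4 to 11 per day, 0 to 8 for day 5 against day 4, 6 to 9 for day 7 against day 5, 0 to 5 for the knockdown, 1 to 2 for Smarcc1.6 and 0 to 1 for the interaction. Onset counts in Nons, Smarcc1.6 and Smarcc1.7 were 1, 4 and 2 with and without day 6, 0 in each at a level of 1, and 8, 10 and 6 at -1. The cause of these shifts was not tested. The groups share their days, and the tests between groups hold the day as a factor. In the shallowest library 10 of 38 members exceeded 3 reads, and differences between those at or under 3 were not detectable there.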
